A study of Mus musculus with 9 samples.

Results

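Wnt proteins are secreted, lipid-modified ligands that bind Frizzled receptors and their co-receptors on nearby cells. In the canonical branch they stabilize beta-catenin, which acts with TCF/LEF factors on target genes, and other ligands signal through planar polarity or calcium branches. In the embryonic brain Wnt1 is known for its expression in the dorsal midline and at the isthmus, the border between midbrain and hindbrain, where it is needed to maintain the midbrain. Described here are 10 Wnt ligand genes, Wnt1, Wnt3, Wnt3a, Wnt4, Wnt5a, Wnt5b, Wnt7a, Wnt7b, Wnt8b and Wnt9a, chosen by name from the 21356 distinct gene names of the table. The question is whether a higher level of Wnt1 in fetuses that carry Wnt1-Cre was shared by the other ligands. All 10 passed the filter on low values, as did 14029 genes in all.

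Midbrain tissue was taken from C57BL/6 mouse fetuses at E13.5 and its poly-A RNA was sequenced, with 3 fetuses in each of 3 groups. The floxed control was Gpr161 f/f without Cre, the Cre control was Gpr161 f/+;Wnt1-Cre, and the cKO was Gpr161 f/f;Wnt1-Cre. Every fetus therefore carried at least 1 floxed allele of Gpr161, a receptor of the primary cilium that restrains Shh signaling. The Cre control differed from the floxed control both in carrying Cre and in its number of floxed alleles, and the 2 cannot be told apart. Wnt1-Cre is a transgene in which regulatory DNA of Wnt1 drives Cre recombinase in the midbrain and the neural crest. The table gives 1 value per gene, so RNA from the endogenous Wnt1 gene and RNA of Wnt1 sequence from a transgene cannot be told apart. All values are log2 values that the authors had normalized, and depth is unknown. Differences were tested with limma over all 14029 genes, and a gene was called at a Benjamini-Hochberg adjusted p under 0.05.

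Gpr161, the targeted gene, was at 11.80, 11.74 and 11.78 in the floxed control, 11.77, 11.91 and 11.96 in the Cre control and 11.74, 11.95 and 11.94 in the libraries labelled cKO (log2 values). It was not lower in the cKO, and 1 value per gene does not separate the floxed exon from the others, so directions below rest on the labels. Of the midbrain and isthmus markers En1, En2, Otx2, Pax7, Pax5, Meis2 and Dmbx1, 7 of 7 had a value in every library, and their summed level, in cpm of the values turned back from log2 to linear, was 658 to 787 in the floxed control, 693 to 777 in the Cre control and 646 to 722 in the cKO. Single markers differed within this sum. In cKO relative to floxed controls, limma called 1 of the 7 higher and 2 lower, beside 19.5% and 18.8% of all genes. Their log2 differences ran from -0.57 to 0.56. Pax5 had means of 11.24 in the floxed control and 11.80 in the cKO, Meis2 12.59 and 12.02, and Pax7 10.42 and 9.94. The part of these shifts in the ligands was not tested. The tissue held other cells as well, among them forebrain, mesenchymal and epithelial ones by their markers, and these are given beside the ligands they moved with. In such tissue, fewer cells of a type and less RNA per cell cannot be told apart. The labels give no batch.

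The sequences just before the gene starts are shown for the 4 ligands called between Cre carriers and floxed controls. They are given because regulatory DNA of Wnt1 drives the Cre used here, to set the promoter of Wnt1 beside those of the other 3. RefSeq start sites on GRCm38.p6 were found for 8 of the 10 ligands, without Wnt5a and Wnt7b. Capitals mark the GC box GGGCGG on either strand, an element of many promoters without a TATA box. Each sequence covers up to 250 bases and stops at the first base annotated to the gene in GENCODE.
Wnt1, chr15:98789607-98789856, plus strand: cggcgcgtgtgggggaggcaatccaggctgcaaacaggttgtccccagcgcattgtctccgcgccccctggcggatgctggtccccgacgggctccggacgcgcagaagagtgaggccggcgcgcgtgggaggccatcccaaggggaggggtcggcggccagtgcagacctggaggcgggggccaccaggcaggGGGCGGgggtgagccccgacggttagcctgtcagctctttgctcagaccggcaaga
Wnt4, chr4:137277385-137277488, plus strand: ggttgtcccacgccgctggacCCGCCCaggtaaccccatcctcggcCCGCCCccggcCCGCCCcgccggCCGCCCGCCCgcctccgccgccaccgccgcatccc
Wnt5b, chr6:119544348-119544597, minus strand: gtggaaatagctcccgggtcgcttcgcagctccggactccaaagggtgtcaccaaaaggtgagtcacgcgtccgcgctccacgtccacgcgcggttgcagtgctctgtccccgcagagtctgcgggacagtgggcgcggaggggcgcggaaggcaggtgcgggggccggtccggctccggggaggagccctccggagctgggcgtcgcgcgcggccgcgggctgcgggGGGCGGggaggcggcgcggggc
Wnt7a, chr6:91411364-91411603, minus strand: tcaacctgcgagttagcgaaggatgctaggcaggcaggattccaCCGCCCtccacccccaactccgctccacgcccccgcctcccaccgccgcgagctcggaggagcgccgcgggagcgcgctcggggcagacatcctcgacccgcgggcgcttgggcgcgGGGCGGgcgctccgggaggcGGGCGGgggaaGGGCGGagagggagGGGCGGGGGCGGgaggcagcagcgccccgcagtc

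In the 250 bases before the RefSeq start, GGGCGG was found in 8 of the 10 windows of these ligands (Wnt5b has 3 windows) and in 32.7% of 32851 windows of all genes. The window of Wnt1 held 1 match, that of Wnt4 8 and that of Wnt7a 6. Matches and base shares are those of the full 250 bases. The printed sequence of Wnt4 stops after 104 bases, so part of its 8 matches lies in bases annotated to the gene and is not printed. G and C made up 71.6% of the bases of the Wnt1 window, 85.2% of that of Wnt4 and 48.4% of that of Wnt8b, which held no GC box. The motif ATCAAAG, bound by TCF/LEF factors, was searched on both strands and was found in 1 of the 10 windows, a downstream start of Wnt5b, and in 3.21% of all windows. The motif GACCACCCA, bound by the GLI factors of Shh signaling, was found in 0 of the 10 windows and in 0.225% of all windows. In the sequences printed, neither motif was present, so none overlaps a GC box.

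Wnt1 was the ligand with the large difference between fetuses with and without Cre. Its log2 values were 9.22, 9.08 and 9.25 in the floxed control, 11.01, 10.91 and 10.89 in the Cre control, and 10.57, 10.80 and 10.59 in the cKO. The 3 groups did not overlap, and the Cre control was the highest. Against the floxed control, Wnt1 was higher by 1.75 in the Cre control (95% interval 1.59 to 1.91) and by 1.46 in the cKO (1.31 to 1.62), as log2 differences. The rise of Wnt1 in Cre carriers was known when the ligands were chosen, so these 2 values are a description. In the cKO, Wnt1 was below the Cre control by a log2 difference of -0.28 (adjusted p = 0.0373 by limma), which passed in 7 of 14 alternatives. Its adjusted p there ranged from 0.0300 to 0.200, the highest with epithelial markers as a covariate, and it was over 0.05 without 1 of these libraries: Cre control replicate 2 (0.0765), Cre control replicate 3 (0.0847), cKO replicate 1 (0.145) and cKO replicate 3 (0.0962).

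**Figure D1:**
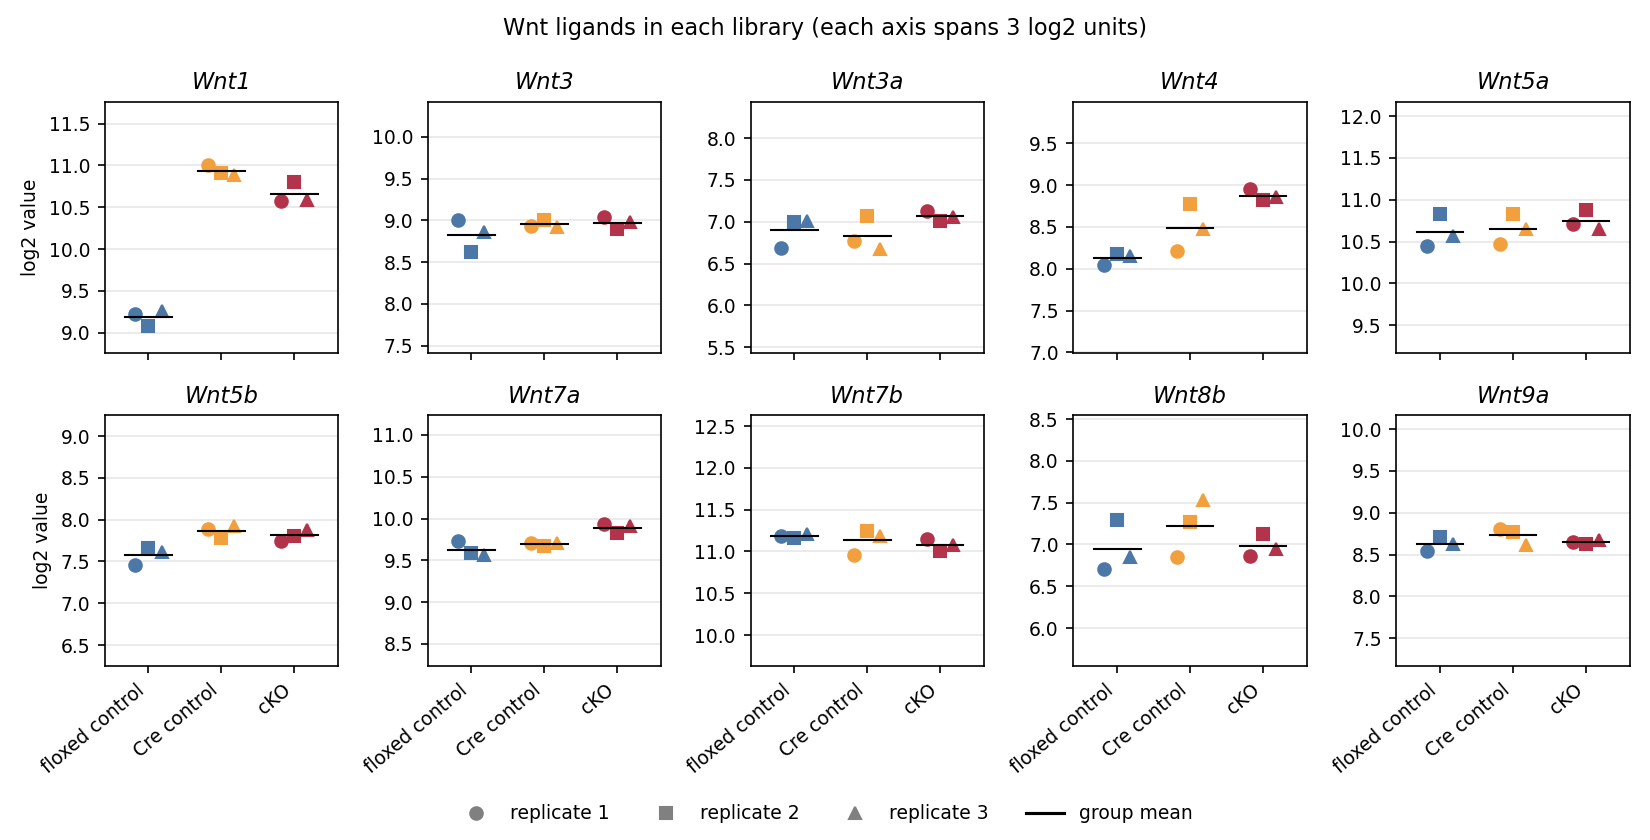
Log2 value of each of the 10 Wnt ligands in the 9 libraries, with 3 points per genotype, a marker shape per replicate and a line at the group mean; each panel spans 3 log2 units. Wnt1 is at 9.08 to 9.25 in the floxed control and at 10.57 to 11.01 in the libraries with Cre, while the other ligands stay within 1 unit across all libraries.

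The difference between Wnt1 and the other ligands was tested in each library as the log2 value of Wnt1 minus the mean log2 value of the other 9. In the floxed control this was 0.580, 0.304 and 0.538. In the Cre control it was 2.28, 1.98 and 2.03, and in the cKO 1.66, 1.91 and 1.69. The libraries with Cre were all above those without, at 1.93 ± 0.228 (SD, n = 6) against 0.474 ± 0.149 (SD, n = 3). The difference of 1.45 had p = 0.0119 (two-sided exact permutation test over libraries), the smallest p that the 84 ways to choose 3 of 9 libraries allow. Because the rise of Wnt1 was known beforehand, this p is not independent evidence for it. The mean of the other 9 ligands itself was 8.64, 8.78 and 8.72 in the floxed control, 8.73, 8.94 and 8.85 in the Cre control, and 8.91, 8.89 and 8.89 in the cKO.

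When Cre controls were compared with floxed controls, Wnt1 was the 1 ligand of the 10 that was called, where 0.057% of all genes tested were called in either direction, 0.0499% higher and 0.00713% lower. By group means, 8 of the 10 ligands were higher, beside 49.6% of all genes, and the median log2 fold change of the 10 was 0.12, beside -0.0010 over all genes tested. The groups did not overlap for 3 of the 10 ligands, Wnt1, Wnt4 and Wnt5b, all higher, beside 10.7% of all genes higher and 12.1% lower. In cKO relative to floxed controls, 4 of the 10 ligands were called, all higher, namely Wnt1, Wnt4, Wnt5b and Wnt7a. Among all genes tested, 38.3% were called in either direction, 19.5% higher and 18.8% lower, so 4 of 10 is close to that background. Of the 10 ligands, 9 were higher by group means, beside 52.4% of all genes. The groups did not overlap for 4 ligands that were higher and for Wnt7b, which was lower, beside 29.9% and 27.3% of all genes.

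Where both groups carried Cre, in cKO relative to the Cre control, Wnt1 alone was called, lower, beside 9.72% of all genes in either direction, 4.86% higher and 4.85% lower. By group means 5 of the 10 ligands were higher, beside 53.7% of all genes. The groups did not overlap for Wnt4 and Wnt7a, which were higher, and for Wnt1, which was lower, beside 17.8% and 13.7% of all genes. With the mean of the 2 Cre groups set against the floxed control, Wnt1, Wnt4, Wnt5b and Wnt7a were called, beside 27.3% of all genes, and 9 of the 10 ligands were higher by means, beside 51.5% of all genes. The 6 Cre carriers did not overlap with the floxed controls for Wnt1, Wnt4 and Wnt5b, all higher, beside 9.25% of all genes higher and 9.88% lower. With a fold change over 1.5 required as well, the 4 comparisons in this order called 1, 2, 0 and 1 of the 10 ligands, beside 0.0285%, 2.92%, 0.563% and 0.77% of all genes. At an unadjusted p under 0.05 they called 3, 4, 3 and 4 of the 10, beside 17.5%, 48.1%, 29.3% and 40.3% of all genes. The comparisons with the floxed control share its 3 libraries.

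**Figure D2:**
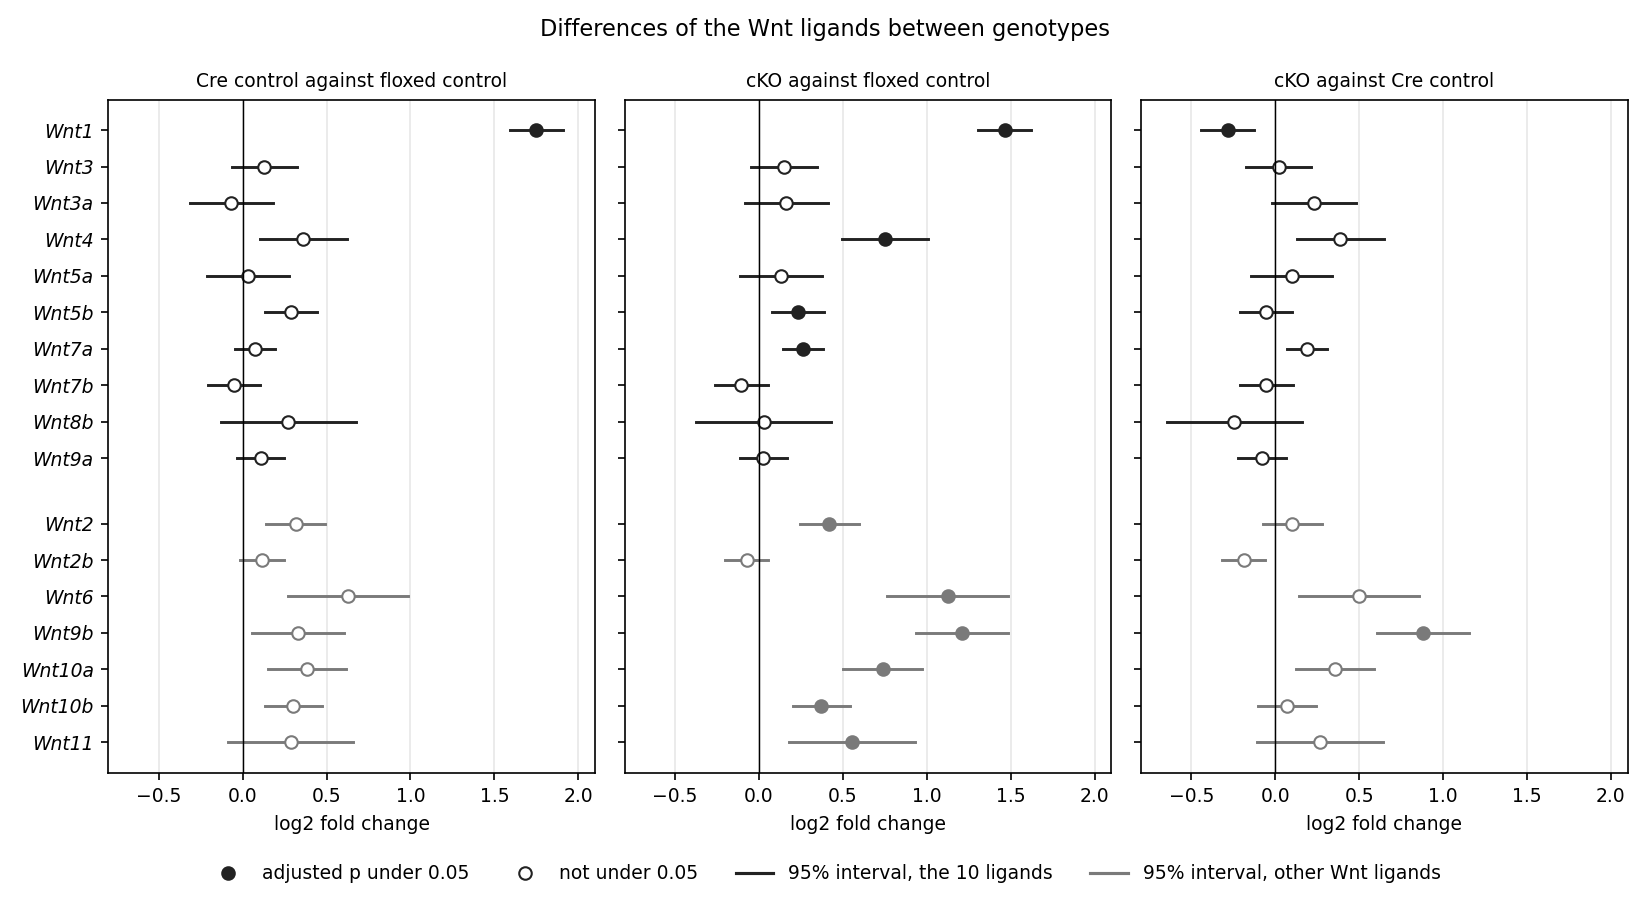
Log2 fold change of each tested Wnt ligand in 3 comparisons, with the 95% interval of the limma fit as a line and a filled point where the adjusted p is under 0.05; black marks the 10 ligands and grey the other Wnt ligands. Wnt1 stands at 1.75 in the Cre control and 1.46 in the cKO against the floxed control, and the next highest of the 10 is Wnt4, at 0.36 and 0.75.

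Wnt4, a ligand of epithelia, kidney and meninges among other tissues, had log2 values of 8.04, 8.17 and 8.15 in the floxed control, 8.22, 8.77 and 8.47 in the Cre control, and 8.95, 8.82 and 8.85 in the cKO. The cKO libraries were all above the others, and Cre control replicate 1 lay next to the floxed controls. Wnt4 rose by 0.75 in cKO relative to floxed controls (95% interval 0.49 to 1.01, adjusted p = 0.00136 by limma), which was over the fold change limit of 1.5. The Cre control differed from the floxed control by 0.36 (adjusted p = 0.193) and the cKO from the Cre control by 0.39 (adjusted p = 0.0614). Without Cre control replicate 2 the latter passed, at 0.53 (adjusted p = 0.0166). Some markers of epithelium moved with Wnt4, and their values are given with those of Wnt6, Wnt9b and Wnt10a.

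Wnt5b and Wnt5a are ligands of the noncanonical branches. Wnt5b was at 7.46, 7.66 and 7.61 in the floxed control, at 7.89, 7.78 and 7.93 in the Cre control and at 7.75, 7.80 and 7.88 in the cKO (log2 values). The libraries with Cre were all above those without. It rose by 0.23 in cKO relative to floxed controls (limma, adjusted p = 0.0235), and it did not pass without floxed control replicate 1, cKO replicate 2 or cKO replicate 3 (0.0867, 0.0574 and 0.0811 in turn). The difference in the Cre control was 0.29 (95% interval 0.14 to 0.44, adjusted p = 0.145), and over the 6 Cre carriers Wnt5b rose by 0.26 (adjusted p = 0.0124), though not past the threshold without floxed control replicate 1 (0.0590). Wnt5a was at 10.45, 10.83 and 10.57, at 10.47, 10.83 and 10.65 and at 10.70, 10.88 and 10.65 in the 3 groups in turn. Its groups overlapped, and its differences from the floxed control were 0.034 in the Cre control (95% interval -0.21 to 0.28) and 0.13 in the cKO (-0.11 to 0.37).

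Wnt7a and Wnt7b are ligands of neural progenitors and neurons that also act on brain vessels through Gpr124 and Reck. Wnt7a was at 9.73, 9.59 and 9.56 in the floxed control, 9.71, 9.68 and 9.71 in the Cre control and 9.93, 9.82 and 9.91 in the cKO (log2 values). The cKO libraries were all above the others, while the 2 control groups overlapped. Wnt7a rose by 0.26 in cKO relative to floxed controls (95% interval 0.14 to 0.38, adjusted p = 0.00459 by limma). The Cre control differed from the floxed control by 0.073 (adjusted p = 0.487) and the cKO from the Cre control by 0.19 (adjusted p = 0.0542). The latter passed without Cre control replicate 1, with a minimum of 5 cpm and with the replicate number as a block (0.0419, 0.0485 and 0.0386 in turn). Over the Cre carriers it rose by 0.17 (adjusted p = 0.0252), though not without floxed control replicate 2 or 3 or cKO replicate 1 (0.0849, 0.122 and 0.0534 in turn). Of 7 genes of neural progenitors, 4 were called higher and 0 lower in the same comparison as Wnt7a, beside 19.5% and 18.8% of all genes. Sox2, Nes, Vim and Hes5 rose by 0.29, 0.50, 0.31 and 0.34, while Sox9, Slc1a3 and Fabp7 had differences of 0.020, -0.12 and -0.16 (limma, adjusted p = 0.829, 0.122 and 0.212). The part of these cells in the difference of Wnt7a was not tested. The summed cpm of the 7 genes was 3066 to 3177 in the floxed control, 3060 to 3357 in the Cre control and 3445 to 3602 in the cKO. Wnt7b was at 11.18, 11.16 and 11.21, at 10.96, 11.25 and 11.19 and at 11.15, 11.003 and 11.08 in the 3 groups in turn. Each cKO library was below each floxed control library in Wnt7b, and the difference of -0.10 (95% interval -0.26 to 0.052, adjusted p = 0.265) did not pass.

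Wnt3, Wnt3a, Wnt8b and Wnt9a were called in 0 of the 4 comparisons by limma, and 0 of them had an unadjusted p under 0.05. Wnt3 and Wnt3a are canonical ligands, and Wnt3a is known from the dorsal midline of the neural tube. Wnt3 was at 8.998, 8.62 and 8.86 in the floxed control, 8.93, 9.01 and 8.92 in the Cre control and 9.04, 8.90 and 8.98 in the cKO (log2 values). Its differences from the floxed control had 95% intervals of -0.066 to 0.32 in the Cre control and -0.045 to 0.34 in the cKO. Wnt3a was at 6.69, 7.001 and 7.01, at 6.77, 7.06 and 6.67 and at 7.13, 7.005 and 7.06 in the 3 groups in turn. Its groups overlapped, with intervals of -0.32 to 0.18 and -0.086 to 0.41.

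Wnt9a was at 8.54, 8.70 and 8.62 in the floxed control, 8.80, 8.77 and 8.62 in the Cre control and 8.65, 8.63 and 8.67 in the cKO (log2 values). The groups overlapped, and the interval of the difference from the floxed control was -0.034 to 0.25 in the Cre control and -0.11 to 0.17 in the cKO. Wnt8b, a ligand of the dorsal forebrain and the mid-diencephalic border, was at 6.70, 7.30 and 6.84 in the floxed control, 6.85, 7.27 and 7.53 in the Cre control and 6.86, 7.12 and 6.94 in the cKO. Its values were widest within the controls, and its standard error of 0.18 was the largest of the 10 ligands. The 8 forebrain markers summed to 169.5, 157 and 154 cpm in the floxed control, 165, 148 and 183 cpm in the Cre control and 121 to 125 cpm in the cKO, with 0 markers listed at 0. Of the 3 control libraries with the most Wnt8b, Cre control replicate 3 had the highest sum of its group, Cre control replicate 2 the lowest and floxed control replicate 2 the middle one. The sum follows mainly the strongest marker, Lhx2, and single markers differed. Nkx2-1 was highest in the same 3 libraries, at 7.33, 6.82 and 6.51 in turn, and at 5.65 to 6.30 in the others. Dlx1 was at 7.75, 6.69 and 5.71 in these 3. Lhx2, Emx2 and Six3 were lower in Cre control replicate 2 than in any floxed control. The part of forebrain cells in the values of Wnt8b was not tested.

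The level of each ligand per length was taken as the linear value (2 to the power of the log2 value) per kb of its longest coding transcript, a measure between genes with no test. In the floxed control, Wnt7b was the highest at 684 ± 12.3 (SD, n = 3). It was followed by Wnt7a at 249 ± 15.5, Wnt1 at 246 ± 15.2 and Wnt5a at 225 ± 30.5, whose libraries overlapped. Wnt3 at 148 ± 19.4 and Wnt9a at 119 ± 6.62 came next and did not overlap, then Wnt5b at 80.7 ± 5.76 and Wnt4 at 66.6 ± 3.20, which did not overlap either. Wnt3a at 43.5 ± 5.33 and Wnt8b at 37.2 ± 8.31 were the lowest and overlapped. With Cre, Wnt1 was the first in this order, at 825 ± 37.5 in the Cre control and 679 ± 62.3 in the cKO, and Wnt7b came second at 662 ± 68.6 and 637 ± 33.2. The Wnt1 and Wnt7b libraries did not overlap in the Cre control (795 to 867 and 585 to 716) and overlapped in the cKO (639 to 751 and 603 to 670).

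Of the summed level per kb of the 10 ligands, Wnt1 made up 13.34%, 12.003% and 13.45% in the floxed control. It made up 35.3%, 30.8% and 31.5% in the Cre control and 26.2%, 30.4% and 26.96% in the cKO. The sum itself was 1886 to 1909 in the floxed control, 2457 to 2635 in the Cre control and 2399 to 2472 in the cKO. Without Wnt1 it was 1635 to 1674, 1590 to 1824 and 1722 to 1802, so that the 2 control groups overlapped while the cKO lay above the floxed control. The values are those of a log2 scale turned back to linear, and the shrinkage of low values raises the level of the weakest genes.

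**Figure D3:**
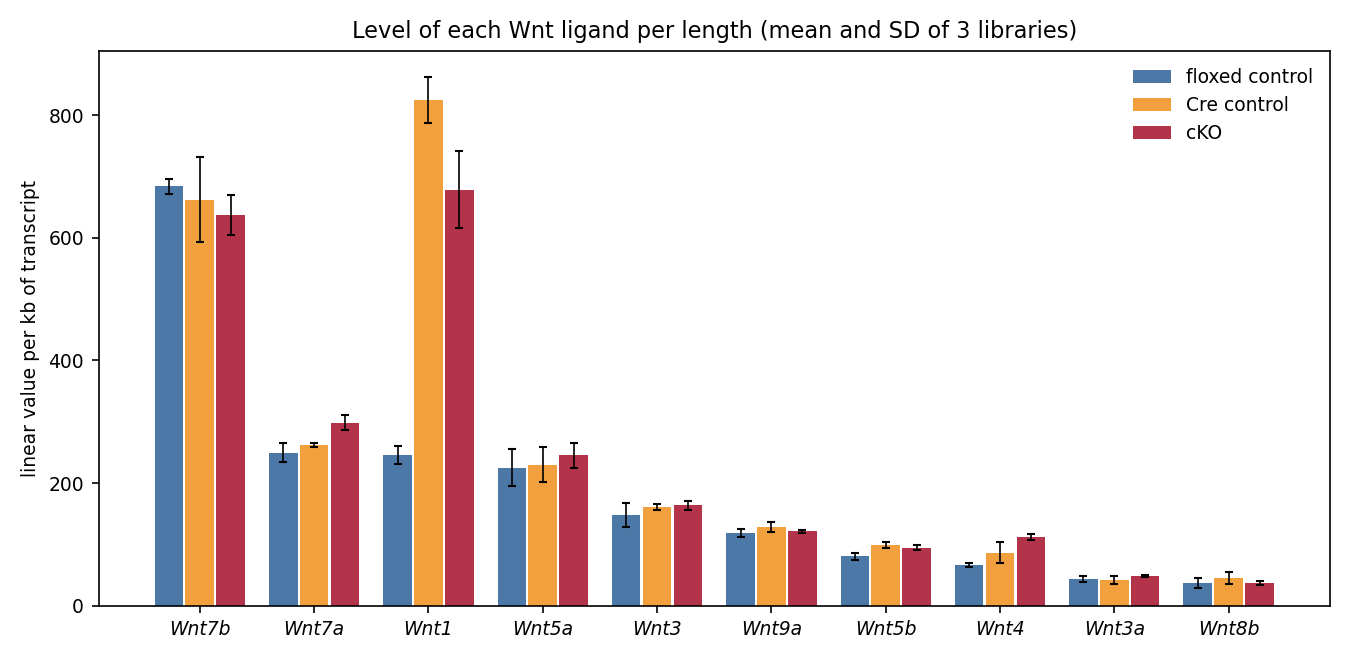
Linear value per kb of the longest coding transcript for the 10 ligands, as bars at the mean with the SD of 3 libraries, in order of the floxed control. Wnt1 rises from 246 in the floxed control to 825 in the Cre control and 679 in the cKO, and Wnt7b stands at 684, 662 and 637.

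Of 9 other Wnt ligand genes in the table, 7 passed the filter, and Wnt8a and Wnt16, with means of 0.46 to 0.48 and 4.14 to 4.22, did not. Wnt10b is left out of the counts that follow, because it reached 1 cpm in 3 libraries, all of them Cre carriers, and so entered the test through the groups where it was higher. Of the other 6, 5 were called in cKO relative to floxed controls, all higher, namely Wnt2, Wnt6, Wnt9b, Wnt10a and Wnt11, where 19.5% of all genes were called higher. When Cre controls were compared with floxed controls, 0 of the 6 were called by limma, beside 0.057% of all genes. At an unadjusted p under 0.05 there were 4 of them, Wnt2, Wnt6, Wnt9b and Wnt10a, beside 17.5% of all genes. Wnt9b alone was called, higher, in cKO relative to Cre controls, where 4.86% of all genes were called higher and 4.85% lower. Wnt2b had a difference of -0.19 in that comparison (adjusted p = 0.0659 by limma). Without Cre control replicate 2, Wnt6 and Wnt10a passed there as well, at 0.73 and 0.47 (limma, adjusted p = 0.00407 and 0.0305).

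Wnt9b, a ligand of the kidney and the face, was at 6.00, 5.91 and 5.98 in the floxed control, 5.97, 6.59 and 6.32 in the Cre control and 7.19, 7.12 and 7.21 in the cKO (log2 values). In the cKO it was above the floxed control by 1.21 (limma, adjusted p = 2.85e-04) and above the Cre control by 0.88 (adjusted p = 0.00613). Wnt6, of the surface ectoderm, was at 7.69, 7.77 and 7.61, at 7.98, 8.78 and 8.20 and at 8.85, 8.75 and 8.85 in the 3 groups in turn. Wnt6 rose by 1.12 in cKO relative to floxed controls (adjusted p = 0.00103). Wnt10a, also of ectoderm, was at 5.48, 5.46 and 5.43, at 5.603, 6.07 and 5.85 and at 6.33, 6.15 and 6.10, and rose in the cKO by 0.74 (adjusted p = 0.00101). In each of Wnt6, Wnt9b and Wnt10a, Cre control replicate 2 was the highest and replicate 1 the lowest of the Cre controls, as it was in Wnt4. Wnt11 rose by 0.55 in cKO against the floxed control (adjusted p = 0.0255), though not without floxed control replicate 3 or cKO replicate 1 or 3 (0.0845, 0.0823 and 0.0622 in turn). Wnt2, at 4.78 to 5.30, lies near the minimum of 1 cpm and rose by 0.42 on this shrunken scale (adjusted p = 0.00312). Wnt10b was at 4.44 to 4.45 in the floxed control, 4.59 to 4.92 in the Cre control and 4.76 to 4.89 in the cKO.

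Some markers of surface ectoderm and epithelium varied between the libraries along with Wnt4, Wnt6, Wnt9b and Wnt10a. This list of 10 genes (Epcam, Cdh1, Krt5, Krt8, Krt14, Krt15, Krt18, Trp63, Grhl2 and Esrp1) was drawn up after the values had been seen. Krt5, a keratin of the basal layer, was at 7.30, 7.33 and 7.39 in the floxed control, 8.12, 10.48 and 9.70 in the Cre control, and 10.54, 10.35 and 10.51 in the cKO (log2 values). Epcam, an adhesion molecule of epithelia, was at 6.68, 6.66 and 6.71, at 6.91, 7.28 and 7.13 and at 7.77, 7.67 and 7.59. Both were lowest in the floxed control, and within the Cre control they were lowest in replicate 1 and highest in replicate 2. Not every marker did so. In Cre controls against floxed controls, 8 of the 10 were higher in mean, beside 49.6% of all genes. Their log2 differences there ran from -0.33 to 2.09, and limma called 0 of them, beside 0.057% of all genes. The summed cpm of the 10 genes was 40.03 to 46.0 in the floxed control, 50.7, 133 and 88.2 in the Cre control and 131 to 147 in the cKO, with 0 genes listed at 0. Of the 10, 9 were called higher in cKO relative to floxed controls, beside 19.5% of all genes, among them Krt5 by 3.13, Krt14 by 2.33 and Trp63 by 1.11 (adjusted p = 9.61e-04, 0.00147 and 7.25e-04 by limma). Markers of meninges and mesenchyme were also higher in the cKO, with 7 of 9 called beside the same 19.5% and a sum of 1083 to 2007 cpm in the floxed control, 1424 to 2328 in the Cre control and 2316 to 2436 in the cKO, and the part of these in the ligands was not tested.

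With the mean of the 10 epithelial markers as a covariate, an alternative chosen after seeing the data, Wnt1 was still higher by 1.83 in the Cre control and by 1.63 in the cKO, both relative to floxed controls (limma, adjusted p = 1.46e-04 and 0.00477). Wnt1 was at its highest, 11.01, in Cre control replicate 1, the Cre carrier with the lowest epithelial sum. This is 1 library, and the part of epithelial cells in the values of Wnt1 was not tested. With the covariate, the difference of Wnt4 in cKO against the floxed control was 0.043 (limma, adjusted p = 0.819). That of Wnt6 was 0.21 (0.498) and that of Wnt10a was 0.16 (0.457). Wnt9b was still higher, by 0.51 (adjusted p = 0.0472). Wnt5b and Wnt7a had values of 0.32 and 0.33 and no longer passed (0.198 and 0.0892), and Wnt7b was lower by -0.48 (0.0186). All cKO libraries were high and all floxed controls low in these markers, so the covariate is nearly tied to the genotype and the 2 are only partly told apart.

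**Figure D4:**
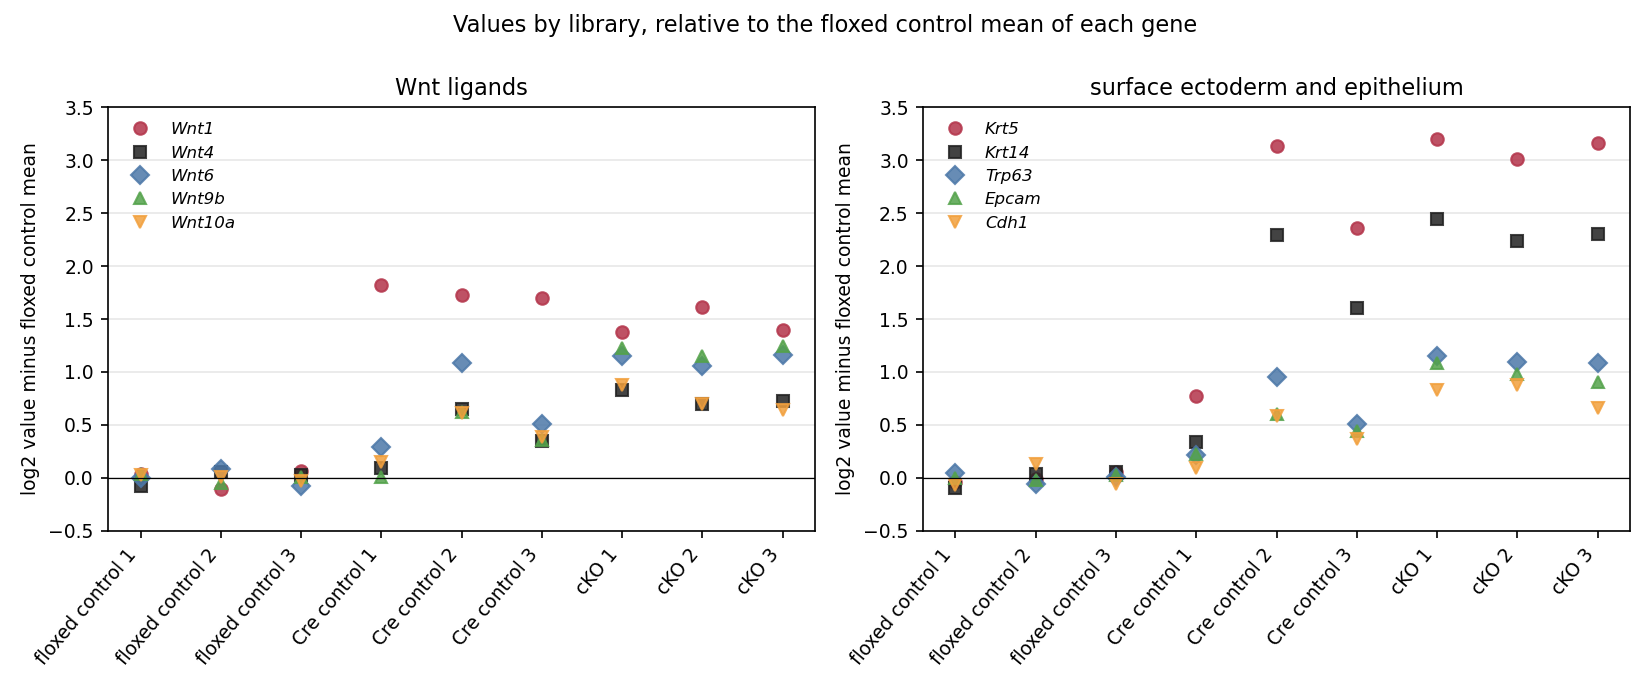
Log2 value minus the floxed control mean of the gene, in each of the 9 libraries, for 5 Wnt ligands (left) and 5 markers of surface ectoderm and epithelium (right). Wnt1 is high in all 6 libraries with Cre, while Wnt4, Wnt6, Wnt9b and Wnt10a are low in Cre control replicate 1, as Krt5 and Krt14 are, and high in the cKO.

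The genes whose profile over the 9 libraries lay nearest to Wnt1 were sought by the root mean square difference of the log2 values after each gene was set to 0 at its floxed control mean. They were Cxcl14, Mgarp, Pcsk6, Fgf8 and Krt17, at 0.515, 0.526, 0.527, 0.579 and 0.610. Nearest to Wnt4 were Wnt10a, Evpl and Rflnb, at 0.0599, 0.0659 and 0.0659. Pcsk6, a proprotein convertase, was at 8.37, 8.44 and 8.60 in the floxed control, 9.44, 9.41 and 9.58 in the Cre control and 9.27, 9.67 and 9.34 in the cKO (log2 values), so that it too was high in every library with Cre. Nearest to Wnt5b were Htra3, Shisa2 and Rab29, at 0.0435, 0.0572 and 0.0678. Nearest to Wnt7a were 1810032O08Rik, Tgif2 and Rcor2, at 0.0289, 0.0314 and 0.0318. A gene with a small change has more near neighbours than one with a large change, so these distances are a description.

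Several Wnt genes lie side by side on GRCm38. Wnt1 (chromosome 15, 98789857 to 98793837) is 11706 bases from Wnt10b, on opposite strands. The mean of Wnt10b in the Cre control was 0.30 above the floxed control. Wnt10b lay under the minimum of 1 cpm in the floxed control and entered the test through Cre carriers. The scale compresses differences of such weak genes, so this value cannot be set against that of Wnt1. Wnt3 and Wnt9b on chromosome 11 are 24328 bases apart, and their differences between cKO and floxed controls were 0.15 (adjusted p = 0.202) and 1.21. Wnt3a and Wnt9a, 16175 bases apart on chromosome 11, were called in 0 comparisons. Wnt6 and Wnt10a, 6193 bases apart on chromosome 1, both rose in the cKO, by 1.12 and 0.74. The difference within a pair was not tested. In the annotated transcripts, 0 sequences of 31 bases were shared between any of these Wnt genes. Wnt11, Wnt4, Wnt7b and Wnt5a shared 8.02%, 6.62%, 4.82% and 4.18% of theirs with genes outside the family, so that their values could hold some reads of other genes.

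The genes that make, receive and answer Wnt signals were counted from lists of the pathway. The lists overlap, so their counts are not separate. Apcdd1, for example, is counted with the antagonists and with the readout genes. Of 7 genes of acylation, secretion and release, 3 were called higher and 1 lower in cKO against the floxed control, beside 19.5% and 18.8% of all genes. Wls, the carrier that brings Wnt proteins to the surface, was at 12.18, 12.42 and 12.33 in the floxed control and 12.59, 12.63 and 12.51 in the cKO (log2 values), and rose by 0.27 (adjusted p = 0.00691 by limma). Porcn, the acyltransferase that lipidates Wnt proteins, fell by 0.28 (adjusted p = 0.0225), though not past the threshold without floxed control replicate 1 (0.0792) or 3 (0.0891), without cKO replicate 1 (0.0839) or 2 (0.0593), or with the covariate (0.146). Notum, which removes the lipid, rose by 0.82 (adjusted p = 0.00153), from 6.13 to 6.24 in the floxed control to 6.65, 7.01 and 7.30 in the cKO. Tmed10, of the export from the endoplasmic reticulum, rose by 0.13 (adjusted p = 0.0158), though not without floxed control replicate 1 (0.0677), without cKO replicate 2 (0.0593) or with the covariate (0.754). Wls lost its call with the covariate (0.455). When Cre controls were compared with floxed controls, limma called 0 of these 7 genes and 0 of the 18 receptors, 8 R-spondin and turnover genes, 17 antagonists, 16 transducers and 16 readout genes below. At an unadjusted p under 0.05 the counts were 1, 2, 1, 9, 2 and 8 in this order, beside 17.5% of all genes.

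Of 18 receptors and co-receptors, 8 were called higher and 2 lower in cKO against the floxed control, and 3 and 1 in turn relative to Cre controls. The shares of all genes, which hold for every list here, were 19.5% and 18.8% in the first comparison and 4.86% and 4.85% in the second. Fzd9, Fzd2 and Ryk had the smallest adjusted p, and rose by 0.49, 0.36 and 0.25 (limma, adjusted p = 4.71e-04, 0.00105 and 0.00127). Of 8 genes of the R-spondins and of receptor turnover, 2 were called higher, Rnf43 by 0.35 and Znrf3 by 0.20 (adjusted p = 0.0190 and 0.0358), both ligases that remove Frizzled receptors from the surface. The call of Znrf3 was lost in 9 of 14 alternatives (adjusted p up to 0.165), which included the omission of any 1 of the 6 libraries compared, and that of Rnf43 in 3 of 13, without floxed control replicate 3 (0.0741), without cKO replicate 3 (0.0701) and with the covariate. Lgr4, a receptor of R-spondins, was not called (0.05, adjusted p = 0.346). Of 17 secreted and membrane antagonists, 8 were called higher and 1 lower. The gene that fell was Draxin, an axon guidance protein that binds Wnt co-receptors, by 0.69 (adjusted p = 1.27e-04). Kremen2 and Apcdd1 rose by 0.71 and 0.57 (adjusted p = 3.05e-04 and 4.51e-04). Of 16 transducers, 3 were called higher, among them Tcf7l1 by 0.50 and Dvl2 by 0.19 (adjusted p = 3.95e-04 and 0.00461), and 6 lower, among them Apc by 0.40 (adjusted p = 0.00687). With the covariate, Fzd2, Ryk, Kremen2 and Dvl2 lost their calls (0.190, 0.0823, 0.0631 and 0.176 in turn).

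Of 16 beta-catenin feedback and readout genes, 11 were called higher and 0 lower in cKO against the floxed control, beside 38.3% of all genes in either direction. The median of their log2 fold changes was 0.27, beside 0.011 over all genes tested. Against the Cre control, 6 were called higher and 1 lower, with a median of 0.19 beside 0.012. When Cre controls were compared with floxed controls, 14 of the 16 were higher in mean, beside 49.6% of all genes. Limma called 0 of them, beside 0.057% of all genes. The median of the 16 was 0.14 in that comparison, beside -0.0010 over all genes tested. Any part of Wnt1 in the values of the readout genes was not tested. Tnfrsf19 was at 11.26, 11.39 and 11.28 in the floxed control, 11.56, 11.74 and 11.65 in the Cre control and 11.86, 11.91 and 11.89 in the cKO (log2 values). It rose by 0.57 in cKO relative to floxed controls (limma, adjusted p = 1.90e-04) and differed by 0.34 in the Cre control (adjusted p = 0.0623), where it passed in 5 of 14 alternatives: a replicate block (0.0276), libraries centred on their medians (0.0485), quantile normalization (0.0453), and the omission of floxed control replicate 2 (0.0415) or of Cre control replicate 1 (0.0204). Sp8 rose by 0.73 in cKO against the floxed control (adjusted p = 4.79e-04). Axin2, the feedback gene most often used as a readout, was at 11.08, 11.12 and 11.16 in the floxed control, 11.23, 11.22 and 11.19 in the Cre control and 11.11, 11.09 and 11.04 in the cKO. The Cre control was the highest of the 3 groups in Axin2. Relative to Cre controls, Axin2 fell by 0.14 in the cKO (adjusted p = 0.0477), a call that was lost in 11 of 14 alternatives (adjusted p from 0.0365 to 0.119), with the omission of any 1 of Cre control replicates 2 and 3 and the 3 cKO replicates among them. Its differences from the floxed control were 0.10 in the Cre control (adjusted p = 0.232) and -0.04 in the cKO (0.442). Lef1 and Ccnd1 differed from the floxed control by -0.09 and 0.20 in the cKO (adjusted p = 0.453 and 0.0555) and by 0.15 and 0.25 in the Cre control (0.399 and 0.182). Ccnd1 in cKO passed in 4 of 14 alternatives, with a replicate block (0.0137), quantile normalization (0.0497), the compared groups alone (0.0153) and the covariate (0.0278).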

How the data were processed

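RNA of midbrain tissue from 9 fetuses at E13.5 was poly-A selected and sequenced by the authors. The authors deposited 1 table of log2 values with 27360 rows. The values are normalized, and they spread less at low expression, which compresses the fold changes of weak genes. The submitters' processing notes name FastQC 0.10.1, kallisto 0.46.1, DESeq2 and mm10, and the transformation is not given in the sources used here. Read counts are not in the table, so the depth is unknown. The linear values sum to between 26605102 and 27491808 per library.

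The 14029 named genes with at least 1 cpm (of linear values) in at least 3 libraries were fitted in R 4.3.3 with limma 3.58.1 (a mean per genotype over all 9 libraries, eBayes with trend, two-sided, Benjamini-Hochberg adjustment over all genes). The fit was tested on simulated data. A test for counts does not apply to these values. The 95% intervals of the differences are those of the fit, unadjusted. Positions and transcript lengths are from GENCODE on GRCm38 and start sites from RefSeq on GRCm38.p6. Genes are named by a rule: the 10 ligands, the other Wnt ligands, Gpr161, in each pathway list the 3 genes of lowest adjusted p, 6 set genes of the pathway, the nearest profiles, and markers that move with a result. The genes and lists were chosen with earlier results of these data known. Fetuses are separate samples. Replicate numbers were not used as pairs. The alternatives were other filters and thresholds, the libraries in the fit, a replicate block, no trend, other scalings, the omission of each library, and an epithelial covariate chosen after seeing the data.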

Additional observations from a re-analysis of the deposited data

How the results depend on the processing

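Of 576 values of the 10 ligands under an alternative, 528 kept their direction and their side of the threshold, 20 fell below it, 6 rose past it and 22 changed direction. Wnt1 against the mean of the other ligands was 1.37 to 1.505 with each library left out in turn. Of the 10 ligands, 1 was called in Cre against floxed controls under every alternative but an unadjusted p, which called 3. In cKO against floxed controls, where 4 were called, a fold change over 1.5 left 2, and in Cre carriers 1. With the epithelial covariate 2 ligands were called in each of these comparisons, Wnt1, higher, and Wnt7b, lower. Wnt7b was not among those called without the covariate, and Wnt4, Wnt5b and Wnt7a lost their calls in both. The value of Wnt7b in Cre carriers was then -0.36 (limma, adjusted p = 0.0229). In cKO against Cre controls, where 1 was called, a fold change over 1.5, no filter, the compared groups alone and the covariate each gave 0, an unadjusted p 3, a minimum of 5 cpm 2, and the omission of each library 0 to 2. With the replicate block, cKO against Cre controls called 2 ligands (Wnt7a as well) and no other count of ligands changed. The deviations of same-numbered libraries had correlations of -0.027 to 0.26 (median 0.10, 5 of 9 over 0.1), and those of differently numbered ones -0.28 to 0.16 (median -0.053, 3 of 18 over 0.1), with 4 of 9 libraries nearest their own number. Some shared deviation is present, but not every same-numbered pair was over 0.1 and the labels name no shared litter or day, so the numbers were not treated as pairs. Calls over all genes moved more. Cre against floxed controls called 8 genes, 57 without Cre control replicate 1, 1 without Cre control replicate 3 and 469 with the covariate. Calls ran from 2448 to 6209 around 5380 in cKO against floxed controls, from 237 (without cKO replicate 1) to 3292 (without Cre control replicate 1) around 1363 in cKO against Cre controls, and from 1402 (without floxed control replicate 3) to 4346 around 3834 in Cre carriers. The cause of these changes was not tested.

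With the covariate, these log2 differences changed direction. In Cre against floxed controls they were Wnt4 -0.0020, Wnt5a -0.21, Wnt8b -0.046, Wnt9b -0.030, Wnt11 -0.044 and Tmed10 -0.013. In cKO against floxed controls they were Wnt3a -0.27, Wnt5a -0.35, Wnt8b -0.59, Wnt2 -0.0090, Wnt10b -0.045, Wnt11 -0.090, Gpr161 -3.43e-04 and Lgr4 -0.088. In cKO against Cre controls they were Wnt5a -0.14, Wnt2 -0.11, Wnt10b -0.13, Wnt11 -0.045, Gpr161 -0.051 and Ccnd1 0.11. In Cre carriers they were Wnt3a -0.28, Wnt5a -0.28, Wnt8b -0.32, Wnt11 -0.067 and Lef1 -0.035. Gpr161 in cKO against Cre controls was -0.00947 with libraries centred on their medians, and Lgr4 in Cre carriers 0.0060 with quantile normalization.

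With each library left out in turn, small differences crossed 0. In Cre against floxed controls, Wnt3a ran from -0.18 to 0.016, Wnt5a from -0.055 to 0.14, Wnt7b from -0.11 to 0.035, Notum from -0.011 to 0.067 and Rnf43 from -0.059 to 0.12. In cKO against floxed controls, Wnt8b ran from -0.095 to 0.20 and Wnt9a from -0.012 to 0.068. In cKO against Cre controls, Wnt3 ran from -0.013 to 0.057, Wnt7b from -0.14 to 0.0065, Wnt10b from -0.011 to 0.16, Gpr161 from -0.054 to 0.071 and Ccnd1 from -0.13 to 0.018. In Cre carriers, Wnt3a ran from -0.058 to 0.10, Wnt2b from -0.015 to 0.041, Lgr4 from -0.017 to 0.012 and Lef1 from -0.018 to 0.087. With a minimum of 5 cpm, Wnt2, Wnt3a, Wnt10a, Wnt10b, Notum, Rnf43 and Kremen2 were not tested.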

Other observations

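Marker lists of brain regions and cell types also differed between the groups, and the cause was not tested. Of the hindbrain markers, 4 passed the filter, and 4 of 4 were called lower in cKO relative to floxed controls, beside 18.8% of all genes, with a median log2 fold change of -0.87. In Cre controls against floxed controls their median was -0.89, with 0 of 4 called by limma, beside 0.057% of all genes. Between cKO and Cre controls the median was 0.0061. The 6 genes of the list summed to a level, in cpm of the linear values, of 14.1 to 21.0 in the floxed control, 8.99 to 12.4 in the Cre control and 9.70 to 11.02 in the cKO. Hoxa2 was at 6.48, 6.50 and 6.88 in the floxed control, 5.58, 6.13 and 5.53 in the Cre control and 5.82, 5.80 and 5.68 in the cKO (log2 values). The choroid plexus gene Ttr was at 11.13, 13.65 and 13.32, at 10.51, 12.35 and 8.95 and at 11.04, 9.67 and 10.46 in the 3 groups in turn, with a wide spread within each. Of 8 neuronal genes, 8 were called lower in cKO against the floxed control, beside the same 18.8%, with a median of -0.46. Of 6 roof plate markers, genes of the dorsal midline where Wnt1 and Wnt3a are known to be expressed, 2 were called higher and 1 lower in the same comparison, beside 19.5% and 18.8% of all genes, with a summed cpm of 375 to 411 in the floxed control, 366 to 398 in the Cre control and 318 to 360 in the cKO. This sum follows mainly the strongest marker, Zic1, with a mean of 12.92 in the floxed control and 12.63 in the cKO. Msx1 and Msx2 were higher in mean in the cKO (9.97 to 10.39 and 8.35 to 8.87), and Lmx1a, Gdf7 and Bmp6 were lower. The part of these cells in the values of the ligands was not tested.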
